A study of Mus musculus with 5 samples.

Results

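Complex splicing events are described here for cultured mouse cortical neurons with a knockdown of PQBP1, a polyglutamine-binding nuclear protein that contacts spliceosome proteins. A complex event is a set of 3 or more splice junctions that share a donor or an acceptor and differ at their other end. The members were taken from the authors' deposited table by counting the junctions listed under each event identifier, which gave 177 of 585 events (30.3%), with 586 of 1402 junctions (41.8%), in 165 genes. Neurons were prepared from the cortices of C57BL/6 mouse embryos (E16.5) and were collected on day 5 in vitro. Both groups received lentivirus: 2 samples carried a short hairpin RNA against PQBP1, and 3 mock-knockdown samples, the controls, carried a non-targeting one. Separate cultures are not stated in the labels, and the spread behind the p-values may thus be technical.

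The deposited table gives 1 p-value and 1 log2 fold, knockdown over control, for each junction, and no value for any single sample. The spread between samples, their overlap and the depth are therefore unknown, and no error accompanies the folds. A junction is called here where the authors' p is under 0.05, and it is then said to have risen or fallen in its use relative to the other junctions of its event. A fold with a p of 0.05 or more is given as a value only. Pqbp1 itself has 0 events in the table, so the depletion could not be checked. Of 15 marker genes for neurons, astrocytes, oligodendrocytes and microglia, 2 neuronal ones (Rbfox3 and Snap25) have an event and 0 have a complex one. The cell makeup of the cultures could not be checked from these data.

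The spliceosome removes an intron by joining the donor site at its start to the acceptor site at its end. Where several donors compete for 1 acceptor, or several acceptors for 1 donor, a transcript can include or skip an exon, choose between exons, start or end at another exon, or shift an exon border by a few bases. Neurons are known for dense use of such choices, including very short exons in genes for adhesion, synapses, motors and ion channels. An event with many junctions records several of these choices at once, so a loss at one site can be matched by gains at more than one other.

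Short coding exons were among the sites that rose or fell. From the events described below 11 exons are shown so that their piece of message can be read. Of these the Kif1a 27-nt exon was not called. The Agrn 33-nt exon was called at a junction that passes over the 24-nt exon. The Cadm1 84-nt exon is printed next to the 33-nt exon, whereas its called junction joins the shared acceptor. The exons of Cadm1, Cstf2, Mark2 and Nnat come from the events with the largest changes or smallest p, and those of Agrn, Kif1a and Nrcam were chosen after their values were seen. Each is printed 5′ to 3′ as in the GENCODE M21 transcripts on GRCm38 (mm10). The exon is in capitals, and 9 bases of the neighbouring exon in 1 annotated transcript stand in lower case on each side. Positions are those of the exon.
Cadm1 84-nt exon, chr9:47818734-47818817, plus strand: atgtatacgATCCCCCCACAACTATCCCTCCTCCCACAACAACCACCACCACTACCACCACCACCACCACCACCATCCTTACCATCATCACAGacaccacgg
Cadm1 33-nt exon, chr9:47829377-47829409, plus strand: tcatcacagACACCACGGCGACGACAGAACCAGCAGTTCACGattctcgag
Cadm1 54-nt exon, chr9:47836717-47836770, plus strand: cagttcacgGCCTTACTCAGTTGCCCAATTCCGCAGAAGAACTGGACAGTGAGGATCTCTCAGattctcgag
Cstf2 87-nt exon, chrX:134072678-134072764, plus strand: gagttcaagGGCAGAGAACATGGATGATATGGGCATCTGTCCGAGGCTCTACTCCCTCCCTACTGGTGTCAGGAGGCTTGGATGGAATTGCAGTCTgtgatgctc
Mark2 27-nt exon, chr19:7279986-7280012, minus strand: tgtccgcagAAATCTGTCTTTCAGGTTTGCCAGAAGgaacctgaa
Nnat 81-nt exon, chr2:157561213-157561293, plus strand: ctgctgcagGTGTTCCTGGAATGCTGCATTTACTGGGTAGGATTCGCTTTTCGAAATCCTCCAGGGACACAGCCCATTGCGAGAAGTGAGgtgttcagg
Agrn 24-nt exon, chr4:156168546-156168569, minus strand: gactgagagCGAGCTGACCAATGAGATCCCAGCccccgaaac
Agrn 33-nt exon, chr4:156167777-156167809, minus strand: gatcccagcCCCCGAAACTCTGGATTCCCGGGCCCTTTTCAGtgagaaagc
Kif1a 27-nt exon, chr1:93034546-93034572, minus strand: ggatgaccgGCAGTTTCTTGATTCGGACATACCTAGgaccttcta
Kif1a 24-nt exon, chr1:93026832-93026855, minus strand: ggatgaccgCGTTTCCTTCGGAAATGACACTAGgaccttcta
Nrcam 12-nt exon, chr12:44597782-44597793, plus strand: agaatacagGTCTTTTGAAAGtgatgcaga
The length of each of these 11 exons is a multiple of 3, so taking up or leaving out any one of them keeps the reading frame.

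Choices of a few bases at the edge of an exon are shown next, for pairs of sites in which at least 1 site was called. They were chosen after their values were seen. For acceptors the first 24 bases of the longer exon are printed, and for donors the last 24. Capitals mark the bases that lie between the nearer and the farther site of the pair and that are left out when the shorter exon is made.
Atrx acceptor, chrX:105879995-105880018, minus strand: AAGatggacttcatgggatcgtga
Bai3 acceptor, chr1:25074766-25074789, minus strand: AAGgtcatgcacacaaggaagagg
Camk2b acceptor, chr11:5982738-5982761, minus strand: CAGccaagagtttactcaacaaga
Nle1 acceptor, chr11:82903110-82903133, minus strand: CAGaggacaagaagcccctcgccc
Sema4c acceptor, chr1:36556057-36556080, minus strand: CAGggctgctggactgaagtttag
Stmn4 acceptor, chr14:66356709-66356732, plus strand: CAGatacagtagacctgaactggt
Mrps14 donor, chr1:160195288-160195311, plus strand: tcgctgctgcggaccttccgGCAG
Rtn1 donor, chr12:72236529-72236552, minus strand: tgtggagcaactggaaaaGTCAGG
The capitals end in AG in each acceptor pair shown, the letters that close an intron, so that the shorter exon starts after a second AG. In Rtn1 they start with GT, the usual first letters of an intron, and in Mrps14 with GC, the rarer form. The farther sites of Bai3, Nle1, Stmn4, Mrps14 and Rtn1 are not annotated. Bai3 is named Adgrb3 in the gene models.

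Most complex events had the fewest junctions the definition allows. There were 136 events with 3 junctions, 30 with 4, 9 with 5, 1 with 6 (Myt1l) and 1 with 7. Called junctions went both up and down in 63 events (35.6%), up alone in 51 and down alone in 63. Over all 585 events of the table these shares were 80.5% for both directions, 8.72% for up alone and 10.8% for down alone. Those background shares are set by the 408 events with 2 junctions, where both junctions have opposite signs and p-values that are equal within a relative 1e-06. Every event in the table has at least 1 junction with p under 0.05, so the counts describe a list that was selected by p. Of the 573 junctions of complex events with a p, 243 were called (42.4%), 117 higher (20.4%) and 126 lower (22.0%). Over all events listed, 76.2% of 1389 junctions with a p were called, 37.8% higher and 38.4% lower. In 114 complex events 1 junction was called, in 60 events 2 were, and in 3 events (Nnat, Cadm1 and Eif5a) 3 were.

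**Figure D1:**
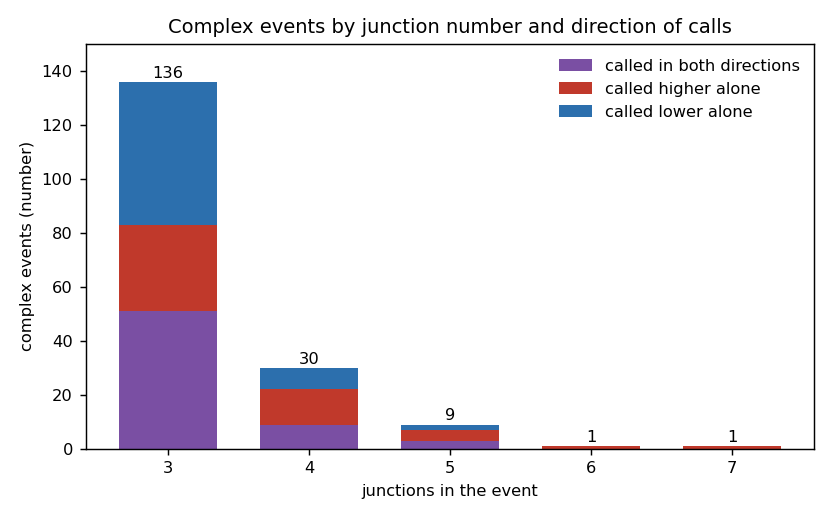
Number of complex events (vertical axis) by the number of junctions in the event (horizontal axis), with bar segments for events whose called junctions went in both directions, up alone or down alone. The bar of 3 junctions holds 136 events, of which 51 had calls in both directions, 32 up alone and 53 down alone.

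The gap between the highest and the lowest log2 fold of an event had a median of 1.48 (interquartile range 1.12 to 1.93) in the authors' deposited table. At the border of the definition it was 1.51 for events with 3 junctions and 1.36 for events with 2, and it tends to grow with the number of values by construction. Among events with 4 junctions the median gap was 1.57, and among those with 5 it was 1.17. Folds ran from -2.50 in Mrps14, a protein of the mitochondrial ribosome, to 2.15 in Dbi, the acyl-CoA binding protein, in the authors' deposited table.

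The shared site was an acceptor in 106 complex events and a donor in 71 (40.1%), whereas events with 2 junctions split 204 to 204. Acceptor-sharing events often reached back to a first exon: in 63 of the 106 (59.4%) at least 1 of the competing donors belonged only to annotated first exons. Among donor-sharing events 22 of 71 (31.0%) had an acceptor that belonged only to last exons. In events with 2 junctions these shares were 18.1% and 20.6%. An event with more variable sites has more chances to hold at least 1 such site, so these shares tend to grow with junction number by construction. By gene models, 47 events were choices among internal exons, 28 mixed internal with first or last exons, 28 combined a choice of exons with alternative sites of an exon, 6 were alternative sites of 1 exon, and 3 were choices among first exons (Arpp21, Bcat1 and Grb10). The other 65 had at least 1 variable site that is not annotated.

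Near and far sites split almost evenly. The junction to the farthest site had the higher log2 fold of the 2 ends in 83 events and the lower one in 94 (46.9% higher). The farther junction was the higher one in 57.1% of events with 2 junctions. Among the 47 choices of internal exons, where the farthest junction skips the most, it was the higher end in 24 and the lower end in 23. In the 3-junction events the smallest p belonged to the nearest junction in 54, to the middle one in 32 and to the farthest in 50.

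Not all junctions of these events match known introns. An annotated intron was matched by 452 of 586 junctions (77.1%), against 89.1% in events with 2 junctions, and 82 complex events were annotated throughout. The median size of the log2 fold was 0.60 for junctions without annotation and 0.39 for annotated ones in the authors' deposited table. Of those with a p, 33.9% of the junctions without annotation and 44.8% of the annotated ones were called. The median intron was 1190 bases long for the nearest and 6197 bases for the farthest junction of an event.

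Among the 63 events called in both directions, where a gain and a loss occur by definition, the largest gap was in Chn1. Chn1 encodes chimaerin, a Rac GTPase-activating protein of axon guidance. Its junction from an unannotated donor rose by 2.13 on the log2 scale (p = 0.0445) in the authors' deposited table. The junction from the 289-nt exon at chr2:73679615-73679903 was at 0.02 (p = 0.796) in the authors' deposited table. That from the 114-nt exon farther upstream fell by 1.79 (p = 0.0403), again in the authors' deposited table. The gain and the loss thus sat at the ends and the middle junction stood near 0.

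Cstf2 encodes the RNA-binding subunit of the cleavage stimulation factor, which acts in 3′ end formation. The junction from its 87-nt exon, shown above, rose by 1.17 (p = 0.0158) in the authors' deposited table. The junction that skips to the 63-nt exon upstream fell by 1.58 (p = 0.0153), and an unannotated junction from a 60-nt exon was at -0.07 (p = 0.776), in the authors' deposited table. Use thus moved from skipping to the 87-nt exon, which was used 2.25 times as much, relative to the event, as in the control.

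Mark2 encodes a kinase that phosphorylates microtubule-associated proteins. Its 27-nt exon rose by 1.72 (p = 0.0348), while the junction that skips it fell by 0.24 (p = 0.0254), in the authors' deposited table. The nearest junction, from a 168-nt exon, was at 0.75 (p = 0.373) in the authors' deposited table. Zyx encodes zyxin, an actin-associated protein of focal adhesions. Its nearest junction, from a 93-nt exon, fell by 0.58 (p = 0.00379), and the farthest, from a 220-nt exon, rose by 1.49 (p = 0.012), in the authors' deposited table. The Zyx junction between them, from a 203-nt exon, was at 0.55 (p = 0.23) in the authors' deposited table. Mark2 moved towards its short exon and Zyx away from its nearest one.

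Choices of first and last exons made up other large gaps among these events. Arpp21, a cAMP-regulated phosphoprotein of neurons, had 4 competing first exons. The nearest of them rose by 1.42 (p = 0.00193) and the third fell by 0.95 (p = 0.00318), with the other two at 0.21 (p = 0.882) and 0.02 (p = 0.921), in the authors' deposited table. Epb4.1l1 encodes the 4.1N protein, which links membrane proteins to the cytoskeleton. A first exon of 473 nt rose by 1.04 (p = 2.99e-05) and a 49-nt internal exon fell by 0.48 (p = 6.87e-05) in the authors' deposited table. The first exon of 188 nt of Epb4.1l1 was at 0.08 (p = 0.895) in the authors' deposited table. In Arpp21 and Epb4.1l1 alike the gain was at the exon nearest to the shared acceptor.

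Sept8, a septin of the cytoskeleton, changed its last exon. The nearest end, annotated for a protein of 430 residues, fell by 1.08 (p = 0.00447), and the farthest, annotated for 484 residues, rose by 1.29 (p = 9.06e-05), in the authors' deposited table. The end between them, for 429 residues, was at -0.43 (p = 0.207) in the authors' deposited table. The long form was thus the one used more.

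Amn1, named after a yeast regulator of mitotic exit, has 3 donors in 1 first exon. The nearest fell by 1.55 (p = 0.00538), the farthest rose by 0.48 (p = 0.0155) and the middle one was at -0.15 (p = 0.731) in the authors' deposited table. Mapkap1 encodes a subunit of the mTORC2 kinase complex. The junction that reaches its farthest donor fell by 2.07 (p = 0.0105) while that from its 328-nt exon rose by 0.15 (p = 0.029) in the authors' deposited table. In the second Mapkap1 event, read from the donor side, the farthest junction fell by 1.88 (p = 0.0198) in the authors' deposited table. In Tmem169 a donor without annotation fell by 1.77 (p = 0.0331) and the one 6 bases away, on a 72-nt first exon, rose by 0.56 (p = 0.0233), in the authors' deposited table.

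**Figure D2:**
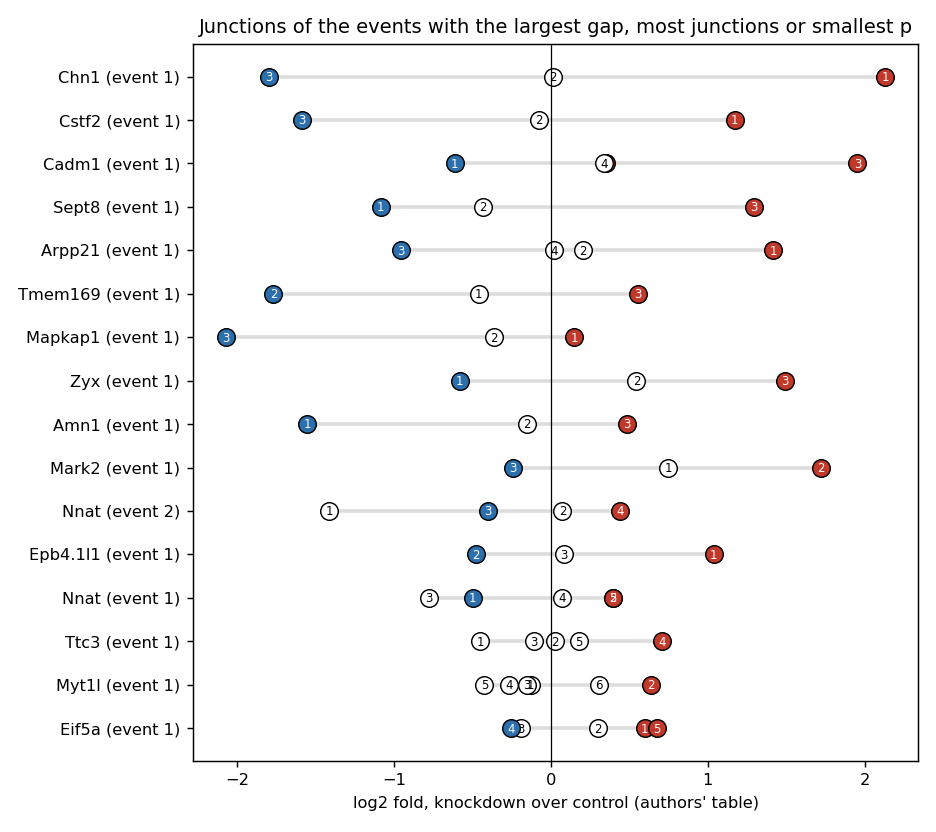
The log2 fold of every junction (horizontal axis) for 16 of the events with the largest gap, the most junctions or the smallest p (vertical axis, 1 line per event). Numbers in the points count from the nearest to the farthest site, red points were called higher, blue points lower, and open points were not called or have no p. In Cadm1 the third junction, from the 84-nt exon, stands at 1.95 and the first, from the 54-nt exon, at -0.61.

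Events with many junctions held between 1 and 3 called ones. In Myt1l, a zinc-finger transcription factor of neurons, 1 of 6 was called, a 615-nt first exon that rose by 0.64 (p = 0.0278) in the authors' deposited table. In Ttc3, a ubiquitin ligase, 1 of 5 was called, the acceptor of a 124-nt exon, which rose by 0.71 (p = 0.0141) in the authors' deposited table. Eif5a, a translation factor, had 3 of 5 called: 0.60 (p = 0.00869) and 0.68 (p = 0.022) at the nearest and the farthest donor, and -0.25 (p = 0.00276) at the fourth, in the authors' deposited table.

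Nnat, an imprinted gene for a small membrane proteolipid of the developing brain, had the smallest p of all complex events. Its 81-nt exon separates a protein of 81 residues from one of 54 residues in the gene models. The junction leaving that exon at its last base fell by 0.50 (p = 4.45e-09) and the junction that skips the exon rose by 0.40 (p = 1.09e-05) in the authors' deposited table. A donor 5 bases earlier in the same exon, giving 76 nt, went the other way and rose by 0.39 (p = 0.0157) in the authors' deposited table. A donor at base 27 was at -0.78 (p = 0.0969) and an 88-nt exon was at 0.07 (p = 0.784) in the authors' deposited table. The junction from the 88-nt exon is also listed in an event with 2 junctions, where it rose by 0.44 (p = 0.00646) in the authors' deposited table. The 5 bases between the donors at 76 and 81 nt are GTGAG, the last capitals of the Nnat exon shown above.

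Read from the upstream donor, the exon start of Nnat fell by 0.40 (p = 3.94e-07) and the skipping junction rose by 0.44 (p = 1.68e-07) in the authors' deposited table. An unannotated acceptor was at -1.41 (p = 0.0867) and the acceptor of the 88-nt exon at 0.07 (p = 0.781) in the authors' deposited table. The skipping junction is the same in both Nnat events, so the 2 views share reads.

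Adhesion and guidance genes had called junctions in both directions. Of 73 listed genes 10 had an event and 4 a complex one, with 4 called junctions higher and 3 lower out of 11 with a p (63.6%, against 42.4% of junctions in all complex events). The event gap had a median of 1.65, against 1.48 over all complex events. Cadm1, which is not in that list and was named for its large gap, is a synaptic and epithelial adhesion molecule of the immunoglobulin family. It has 3 coding exons of 84, 33 and 54 nt before the shared acceptor. The 84-nt exon joined directly to that acceptor rose by 1.95 (p = 0.00919), to 3.87 times the control, and the 33-nt exon rose by 0.35 (p = 0.00975), in the authors' deposited table. The 54-nt exon fell by 0.61 (p = 6.68e-05) and the junction that skips all 3 was at 0.34 (p = 0.43) in the authors' deposited table. The 54-nt exon is the last of the 3, and every junction that leaves it out had a fold above 0.

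From the upstream donor the 54-nt exon of Cadm1 fell by 0.47 (p = 0.00489) and the junction that passes it rose by 0.33 (p = 0.00489) in the authors' deposited table. An unannotated acceptor of that event was at -0.15 with no p in the authors' deposited table.

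Agrn encodes agrin, the organizer of the neuromuscular synapse, whose short neuron-specific exons determine its clustering activity there. The 24-nt exon rose by 0.69 (p = 0.000459) and the junction straight to the 33-nt exon, which is not annotated, fell by 1.19 (p = 0.00762) in the authors' deposited table. The junction that skips both was at -0.24 (p = 0.0754) in the authors' deposited table. These last Agrn junctions are also listed in separate events with 2 junctions, the first at -1.53 (p = 0.000116) and the second at -0.61 (p = 3.71e-05), in the authors' deposited table. All 4 values were below 0, and the listings share reads.

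Nrcam, an adhesion molecule of the L1 family, has the shortest of the exons printed above, at 12 nt. That exon rose by 1.64 (p = 0.000997), and the junction that skips it fell by 0.29 (p = 0.000401), in the authors' deposited table. A 62-nt exon, which occurs in a transcript annotated for nonsense-mediated decay, was at 0.78 (p = 0.181) in the authors' deposited table. In Chl1, a close homologue of L1, a 145-nt first exon rose by 0.57 (p = 0.0248) with the other two junctions at -0.24 (p = 0.371) and -0.19 (p = 0.164) in the authors' deposited table.

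Ntrk2 encodes TrkB, the receptor for brain-derived neurotrophic factor, which is made with a kinase domain or as truncated forms without it. The junction to the last exon of transcripts for 476 residues fell by 0.31 and the one that continues to the transcripts for 821 residues rose by 0.23, both with p = 0.0302, in the authors' deposited table. The other junction, to a last exon for 492 residues, was at 1.11 with no p in the authors' deposited table. The end for 476 residues was thus used less and the one for 821 residues more. For the other short end, of 492 residues, the fold was above 0 and no call could be made. In all 6 events of 3 junctions with 1 empty p, the other two junctions share 1 p and have opposite signs, as in Ntrk2.

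Synaptic genes had called junctions in both directions. Of 87 listed synaptic genes 18 had an event and 7 a complex one. In their 10 complex events 7 called junctions were higher and 8 lower out of 30, which is 50% against the 42.4% of all complex events. The median gap was 1.26, against 1.48. Rims2, named here after its values were seen, encodes a scaffold of the presynaptic active zone, and a first exon of 361 nt rose by 1.92 (p = 0.0257) in the authors' deposited table.

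Syt7, a calcium sensor of asynchronous transmitter release, moved towards skipping its linker exons. Read from the donor, the 132-nt exon fell by 0.52 (p = 0.000711), a 369-nt exon was at 0.05 (p = 0.885) and the skipping junction rose by 0.73 (p = 0.000636) in the authors' deposited table. Read from an acceptor, the 123-nt exon fell by 0.44 (p = 0.00275), the 132-nt exon was at -0.08 (p = 0.906) and the farthest junction rose by 0.67 (p = 0.00157) in the authors' deposited table.

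Camk2b encodes a subunit of the calcium-dependent kinase of the postsynapse. An unannotated junction from its 75-nt exon fell by 1.19 (p = 0.000104), and the junction from a 43-nt exon upstream rose by 0.26 (p = 0.000462), in the authors' deposited table. In the second Camk2b event the 75-nt exon fell by 0.29 (p = 0.00632) and a 41-nt exon rose by 0.25 (p = 0.0378) in the authors' deposited table. The acceptor 3 bases into that exon, giving 38 nt, was at 0.59 (p = 0.163) in the authors' deposited table. Its junction is also listed in an event with 2 junctions, where it rose by 0.90 (p = 0.0273) in the authors' deposited table. The first event holds the junction from the 75-nt exon to the nearer of these acceptors 3 bases apart. In an event with 2 junctions leaving the 75-nt exon, the nearer acceptor fell by 0.61 and the farther rose by 0.15. Both had p = 0.0425 in the authors' deposited table. Less use of the 75-nt exon was thus read in the second event, while the first also depends on the choice of acceptor.

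Nrxn2, a presynaptic adhesion molecule of the neurexins, used its 24-nt exon less, at -0.61 (p = 0.00251), and its skipping junction more, at 0.32 (p = 0.00179), in the authors' deposited table. Its other junction, from a donor of a 45-nt exon, was at -0.34 (p = 0.646) in the authors' deposited table. Grip1, a scaffold of AMPA receptors, had its farthest first exon rise by 0.78 (p = 0.0113) with the nearer junctions at -0.97 (p = 0.056) and -0.61 (p = 0.314) in the authors' deposited table. Synj1, a phosphatase of synaptic vesicle recycling, used its nearest 39-nt exon less, which fell by 0.37 (p = 0.0375), with another 39-nt exon at 1.62 (p = 0.0526), in the authors' deposited table. The second Synj1 event had its farthest junction lower at -0.93 (p = 0.0167) and a short exon at 0.35 (p = 0.0548) in the authors' deposited table. That exon has 24 nt in the transcript for 1323 residues and 21 nt in a transcript for 103 residues.

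The variable sites included 18 exons of 27 nt or less, taking the shortest annotated exon at each site. Of the 21 junctions that reach them 5 were called higher and 7 lower, counting exons seen from both sides more than once. The 7 include the Nnat acceptor at -0.40 (p = 3.94e-07 in the authors' deposited table). That acceptor also starts the Nnat exons of 76 and 81 nt described above, so its fall is not particular to a short exon. Over all complex events 20.4% of junctions were called higher and 22.0% lower. Besides those above, an 18-nt exon rose by 1.45 (p = 0.019) in Lphn2 and an 18-nt exon fell by 0.57 (p = 0.038) in Lphn3 in the authors' deposited table. Both genes encode latrophilins, adhesion receptors of synapses. Of the 135 coding internal exons that the farthest junction leaves out, 80 had a length that is a multiple of 3 (59.3%), against 65.5% of 229 such exons in events with 2 junctions.

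The cytoskeleton and motor list had 26 of 95 genes with an event and 9 with a complex one. Its 10 complex events had 9 called junctions higher and 8 lower out of 32 (53.1%, against 42.4% in all complex events), with a median gap of 1.57. Tpm1 encodes tropomyosin, which lines actin filaments and is made with several alternative ends. Its farthest last exon rose by 0.72 (p = 0.000173) and the third fell by 0.35 (p = 0.00695) in the authors' deposited table. The nearer ends of Tpm1 were at -0.61 (p = 0.0954) and 0.19 (p = 0.678) in the authors' deposited table. In Tpm1, as in Sept8, the gain was at the farthest end.

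Kif1a, of the same list, is the kinesin that carries synaptic vesicle precursors, and offers a 27-nt and a 24-nt exon in turn. The 24-nt exon fell by 0.51 (p = 0.000691) from its upstream side and by 0.49 (p = 0.000975) from its downstream side in the authors' deposited table. The junction that skips both exons rose by 0.27 (p = 0.00681) and 0.25 (p = 0.0183), and it is 1 junction seen from both sides, in the authors' deposited table. The 27-nt exon was at 0.33 (p = 0.34) and 0.39 (p = 0.213) in the authors' deposited table. The fall was thus called for 1 of the neighbouring Kif1a exons and on both of its sides.

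RNA-binding proteins had complex events in 6 of 139 listed genes, out of 24 with any event. Their called junctions were 5 higher and 3 lower out of 21, a share of 38.1% against 42.4% in all complex events. Tial1 encodes TIAR, an RNA-binding protein of stress granules. A 68-nt exon of Tial1 at chr7:128446731-128446798, which occurs in a transcript annotated for nonsense-mediated decay and in no protein-coding one, rose by 0.83 (p = 0.00474) in the authors' deposited table. The junction that skips it fell by 0.62 (p = 0.000397) and a second exon of this kind, of 69 nt, was at 0.72 (p = 0.186) in the authors' deposited table. If the 3 listed junctions make up the whole event, the skipping junction held between 64.9% and 69.0% of it in the control and between 42.1% and 44.8% in the knockdown.

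Rbm39, a splicing factor related to U2AF, showed the same direction. Its 72-nt exon at chr2:156174097-156174168, also in a decay transcript and in no protein-coding one, rose by 0.77 (p = 0.00709) in the authors' deposited table. The skipping junction fell by 0.18 (p = 0.00793) and a 55-nt exon was at 0.22 (p = 0.819) in the authors' deposited table. In Tra2a, a splicing activator, a donor without annotation rose by 1.67 (p = 0.00743), and in Rbfox2, a regulator of neuronal exons, an acceptor without annotation rose by 1.70 (p = 0.0337), in the authors' deposited table. The other junctions of Tra2a and Rbfox2 were between -0.22 and -0.02 in the authors' deposited table. Pcbp2, a poly(C)-binding protein, had its 2 complex events on 1 pair of exons of 93 and 42 nt, and the junction that skips both fell by 1.49 (p = 0.0455) and 1.62 (p = 0.0299) in the authors' deposited table.

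Sites that occur in decay transcripts and in no protein-coding one were counted in all complex events, a count made after these values were seen. There were 18 such junctions, with a median log2 fold of 0.44, and 13 of them were above 0 in the authors' deposited table. They are not independent: a 58-nt exon of Meaf6 is counted in both of its events. Ankrd10, Rbm39 and Tial1 also give more than 1 junction each, and the folds of these 4 genes are all above 0. Called were 4 higher (Nle1, Rbm39 and Tial1 among them) and 2 lower (in Atat1 and Slc25a14) of 18 with a p. Over all complex events 20.4% of junctions with a p were called higher and 22.0% lower. For the 441 junctions to sites used by protein-coding transcripts the median was 0.05, with 95 called higher and 104 lower of 437 with a p. For the 87 junctions whose variable site is not annotated the median was -0.31, with 12 called higher and 16 lower of 79. Events with 2 junctions held 19 junctions to decay sites, with a median of 0.67, 14 called higher and 5 lower. The 40 junctions to sites of other non-coding transcripts had a median of 0.10.

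**Figure D3:**
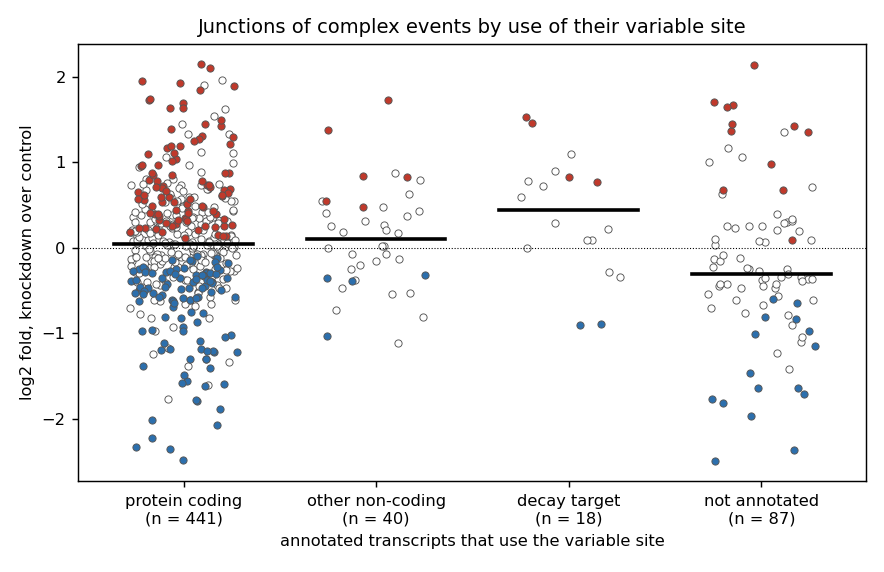
The log2 fold, knockdown over control (vertical axis), of each junction of the complex events, grouped by the annotated transcripts that use its variable site (horizontal axis). Red points were called higher, blue points lower, open points were not called or have no p, and bars are medians. The decay targets have the highest median at 0.44 and the sites without annotation the lowest at -0.31.

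Chromatin and transcription genes had 14 of 84 members with an event and 4 with a complex one, and 3 called junctions higher and 3 lower out of 12 (50%, against 42.4% in all complex events). The event gap of the list had a median of 1.18. Of those 4 genes, 3 encode subunits of the SWI/SNF remodeller. In Smarce1 the nearest junction fell by 0.24 (p = 0.00121) and the farthest rose by 1.01 (p = 0.00683), with the middle one at 0.73 (p = 0.139), in the authors' deposited table. In Smarca2 the nearest junction, from a 35-nt exon, rose by 0.79 (p = 0.00433) and the farthest fell by 0.32 (p = 0.00193), with the middle one at 0.25 (p = 0.302), in the authors' deposited table. In Smarcc2 the nearest junction rose by 0.21 (p = 0.0413) and the other two, whose acceptors lie 3 bases apart, were at -0.33 (p = 0.0591) and -0.38 (p = 0.605) in the authors' deposited table. The 3 subunits thus had no common direction from near to far.

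Atrx, a remodeller of heterochromatin, had 1 called junction. The farther of its acceptors 3 bases apart fell by 1.30 (p = 0.0465), with the nearer at 0.23 (p = 0.653) and the acceptor of a 114-nt exon at 0.16 (p = 0.346), in the authors' deposited table. Meaf6, a subunit of a histone acetyltransferase complex, had 1 called junction, listed in both of its events, at -1.11 (p = 0.0327) and -1.22 (p = 0.0168) in the authors' deposited table.

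Channels and transporters had 12 of 51 members with an event and 4 with a complex one, with 3 called junctions higher and 3 lower out of 14 (42.9%, against 42.4% in all complex events). The largest gap of this list was in Scn8a, the sodium channel of the axon initial segment. The junction of Scn8a that skips a 123-nt coding exon rose by 2.10 (p = 0.0466), with the acceptor of that exon at -0.12 (p = 0.757) and that of a 68-nt exon at -1.11 (p = 0.16), in the authors' deposited table. If the 3 junctions make up the event, the skipping junction held between 2.42% and 14.1% of it in the control. Scn3a, a sodium channel of the embryonic brain, had donors 9 bases apart that rose by 0.98 (p = 0.0485) and fell by 0.77 (p = 0.0371), with the other donor at 0.25 (p = 0.792), in the authors' deposited table. Of the Scn3a donors only the one that fell is annotated. In Cacnb3, a calcium channel subunit, 2 first exons were called, at 0.34 (p = 0.0194) and -0.30 (p = 0.0411), in the authors' deposited table. In Atp11b, a phospholipid flippase, the farthest junction fell by 0.97 (p = 0.0375) with the others at 0.26 (p = 0.381) and 0.09 (p = 0.533) in the authors' deposited table.

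Trafficking and small GTPase genes had complex events in 5 of 77 listed members, with 4 called junctions higher and 4 lower out of 14 (57.1%, against 42.4% in all complex events). Arfgap1, which turns off Arf GTPases, used its 30-nt exon less, at -0.36 (p = 0.0213) in the authors' deposited table. The junction that skips the 30-nt exon to reach a 57-nt exon rose by 0.60 (p = 0.0213) in the authors' deposited table. The 57-nt exon occurs in annotated transcripts with and without the 30-nt exon. Agap3, of the same class, had a called last exon at 0.43 (p = 0.00389) and a called internal exon of 93 nt at -0.30 (p = 0.00401) in the authors' deposited table. That last exon has 63 nt in a non-coding transcript and 919 nt in the protein-coding transcript for 578 residues. In Ralgps1, an activator of Ral, the nearest junction rose by 0.32 (p = 0.0202) in the authors' deposited table.

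Ubiquitin genes had complex events in 3 of 60 listed members, with 2 called junctions higher and 2 lower out of 12 (33.3%, against 42.4% in all complex events). In Uba1, the activating enzyme of the pathway, a 228-nt first exon rose by 0.11 (p = 0.0159) and a 106-nt one fell by 0.62 (p = 0.0326) in the authors' deposited table. Of the 165 genes with a complex event, 42 were in at least 1 list and 123 in none.

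The remaining genes with 2 complex events were Apbb1, Sdccag3 and Pisd-ps3. Apbb1 encodes Fe65, an adaptor of the amyloid precursor protein. Read from the donor, its skipping junction fell by 0.37 (p = 0.0118) with exons of 84 and 40 nt at 1.45 (p = 0.0794) and 1.12 (p = 0.116) in the authors' deposited table. Read from the acceptor, the same junction fell by 0.82 (p = 0.00495) in the authors' deposited table. The other junctions of that event were at 0.43, 0.49 and 0.09 and were not called. Sdccag3, named Entr1 in the gene models, had a called junction at 1.21 (p = 0.0318) in one event and at -0.97 (p = 0.0437) in the other in the authors' deposited table. Pisd-ps3 is named as a pseudogene and lies on an unplaced contig, so reads may be shared with near-identical copies. Its called junctions were at 0.09 (p = 0.0487) and -0.83 (p = 0.0118) in the authors' deposited table.

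Some junctions were listed in more than 1 event. A second event held 38 of the junctions, in 32 genes, 11 of them in 2 complex events. These 11 are 1 junction each of Apbb1, Cadm1, Camk2b, Kif1a, Mapkap1, Meaf6, Nnat, Pcbp2, Pisd-ps3, Sdccag3 and Syt7, so the 2 complex events of each of these genes are not independent. The sign of the fold was the same in both listings for 37 of the 38, and since the listings share reads this is a description. The exception was a junction of Kctd17, at -0.09 (p = 0.765) in 1 event and 0.45 (p = 0.00831) in the other, in the authors' deposited table.

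Sites a few bases apart were found in 36 complex events. Counting sites at most 12 nt apart, there were 16 acceptor pairs, 12 of them at 3 nt, and 21 donor pairs, of which 5 lay 4 nt apart and 5 lay 9 nt apart. Events with 2 junctions held 15 acceptor pairs, 12 of them at 3 nt, and 5 donor pairs. The distance was a multiple of 3 in 13 of 16 acceptor pairs and in 10 of 21 donor pairs. Both sites were annotated in 6 of 16 acceptor pairs and in 10 of 21 donor pairs. Of the 3-nt acceptor pairs, 11 could be read from transcripts and are not on chromosome 18. In all 11 bases 2 and 3 of the longer exon are AG, 9 times as CAG and 2 times as AAG, a pattern found at 5.57% of 238822 annotated acceptors. Since the farther site needs an AG at just this place, the letters describe the pairs and are no finding about them. Between the donors, 13 of 14 readable pairs began with GT and 1 with GC.

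Within complex events at least 1 site was called in 6 of the 12 pairs at 3 nt and both in 0. The nearer site had the higher fold in 8 and the farther in 4, which was not tested. Over all complex events 42.4% of junctions with a p were called. A pair holds 2 junctions and each event was selected by p, so the count of pairs with a call is a description. Nle1 encodes a Notchless homologue of ribosome assembly. Its nearer site rose by 1.46 (p = 0.0216) with the farther at -0.66 (p = 0.516) in the authors' deposited table. Sema4c, a semaphorin, had its nearer site rise by 0.65 (p = 0.0276) with the farther at -0.29 (p = 0.116) in the authors' deposited table. Stmn4, a tubulin-binding protein of the stathmin family, had its farther site at -0.60 (p = 0.0279, called) with the nearer at 0.07 (p = 0.358) in the authors' deposited table. Bai3, an adhesion receptor of synapses, had its nearer site at -0.14 (p = 0.0349, called) with the farther at -0.28 and no p in the authors' deposited table. Of the 6 pairs with a called site, the nearer site, which keeps the 3 bases, had the higher fold in Nle1, Sema4c, Stmn4, Atrx and Bai3 and the lower one in Camk2b. The farther site is not annotated in Nle1, Stmn4 and Bai3.

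The folds of donor pairs lay farther apart by the median, a difference that was not tested. The median difference between the folds of a pair was 0.86 for donors and 0.42 for acceptors in the authors' deposited table. At least 1 site was called in 13 of 21 donor pairs, against 9 of 16 acceptor pairs. Both sites were called in 4 donor pairs (Nnat, Rtn1, Scn3a and Tmem169), and in each of those 4 the sites moved in opposite directions. These counts were not tested, and each event was selected by p. Rtn1 encodes reticulon, a shaper of the endoplasmic reticulum. Its donor pair 6 nt apart rose by 0.13 (p = 0.0363) at the nearer site and fell by 0.98 (p = 0.000221) at the farther in the authors' deposited table. The farther Rtn1 donor is not annotated. In Mrps14 the farther donor, 4 nt away and not annotated, fell by 2.50 (p = 0.0184), with the nearer at 0.09 (p = 0.326), in the authors' deposited table. Cnbp, a nucleic acid-binding zinc finger protein, had the farther of donors 3 nt apart rise by 0.43 (p = 0.000915) with the nearer at 0.36 (p = 0.404) in the authors' deposited table.

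**Figure D4:**
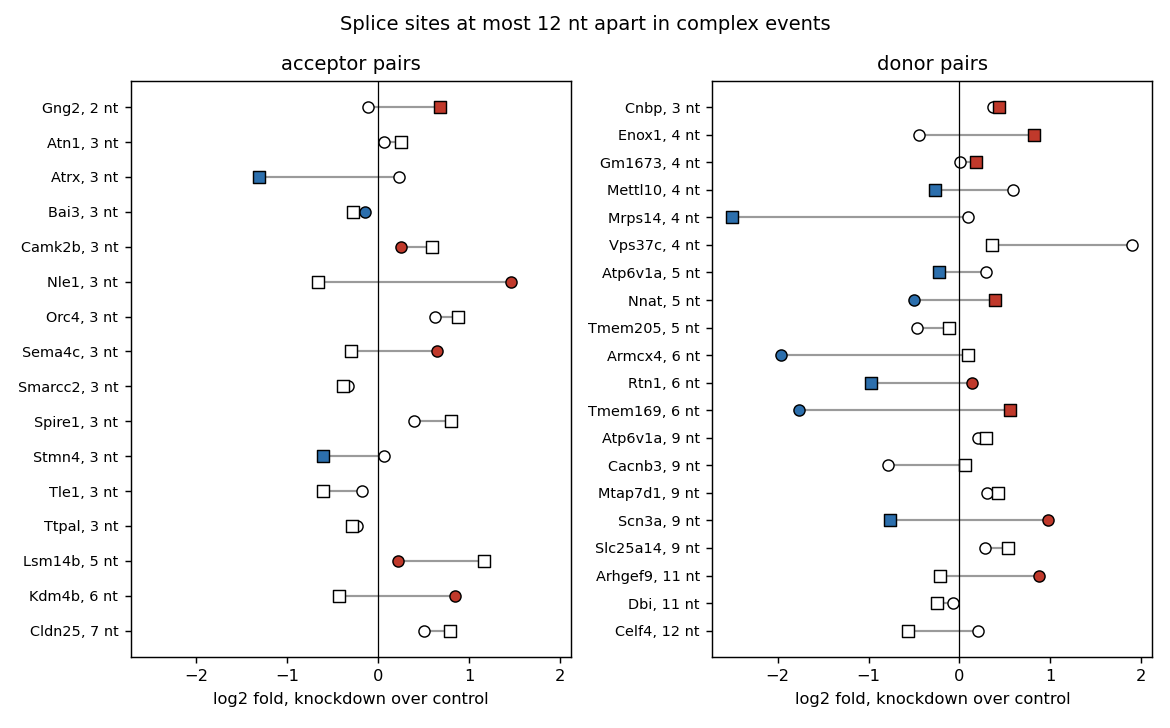
The log2 fold of the nearer site (circles) and the farther site (squares), joined by a line, for 16 pairs of acceptors (left) and 20 of donors (right) at most 12 nt apart in complex events, with the distance beside the gene. Red sites were called higher, blue sites lower and open sites were not called or have no p. The widest pair with both sites called is in Tmem169, at -1.77 and 0.56.

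How much of an event a changed junction carried can be bounded in part. If the listed junctions make up the whole event, their shares add up to the whole in each group, and a junction that alone has its sign then has a limited range of possible shares. There were 150 events with such a junction, called in 139 of them, 56 higher and 83 lower. Over all complex events 42.4% of junctions with a p were called. Each event was selected for a junction with p under 0.05, and a lone junction has to balance all the others. Calls are thus likely to fall on lone junctions by construction. The range had a median width of 15.3 percentage points, and it takes the folds as exact, also those of junctions not called. The control share was at least 50% in 36 of the called lone junctions, 27 of them lower and 9 higher. It was at most 10% in 9, of which 7 were higher and 2 lower. Of the 44 called lone junctions with an absolute log2 fold of 1 or more, 24 held at most 25% of the event in the control. The unannotated acceptor of Rbfox2 held between 0.735% and 3.20% in the control and between 2.39% and 10.4% in the knockdown. The 24-nt exon of Kif1a held between 41.1% and 45.9% in the control and between 28.8% and 32.2% in the knockdown, by its upstream junction. A fall from a large share and a rise from a small one are both bounded by the shares themselves, so the counts describe where the called junctions started.

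**Figure D5:**
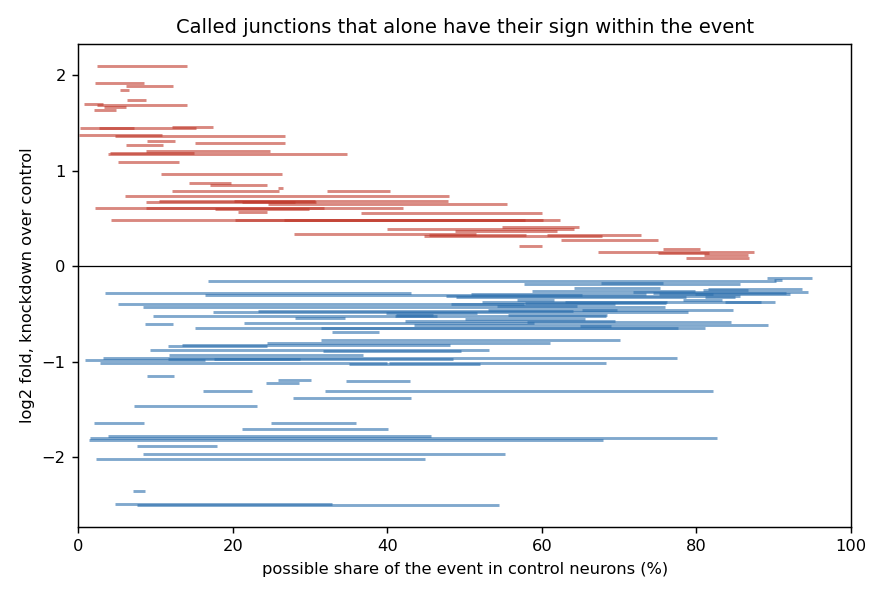
The range of possible control shares of the event (horizontal axis, percent) against the log2 fold (vertical axis) for the 139 called junctions that alone have their sign within the event. Red lines rose and blue lines fell, and each line spans the range that the folds of the event allow. The 7 rising junctions with at most 10% of the event in the control stand at the upper left.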

How the data were processed

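PolyA RNA of 2 PQBP1-knockdown and 3 mock-knockdown samples was sequenced after library preparation with the IntegenX PrepX kit, per the labels' protocols. The submitters' processing notes name TopHat2 2.0.4 and the build mm10. Sources used here do not give how junction reads were counted and tested or whether p was adjusted. For each junction the authors deposited a p-value, a log2 fold and positions, and no values per sample, so depth and precision are unknown and no test of samples was made. The deposited p-value is taken as unadjusted and the deposited log2 fold as a change within the event.

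Positions were shifted by 1 base and compared with introns of GENCODE M21 (Python 3.11.15, pandas 2.3.3). The exon at a site is the shortest annotated one. Named were the 10 events with the largest gap among those called both ways, the 5 with the most junctions, the 5 with the smallest p, genes with 2 complex events and up to 4 genes of each of 8 lists. Genes outside this rule were named after their values were seen. Members and lists were chosen with earlier results of these data known. The arithmetic of the share bounds was checked on simulated events with exact folds. That check could not tell whether the ranges hold for folds with error. Alternatives were other thresholds, 4 or more junctions, annotated junctions alone and 1 event per gene. Results for 3 genes are not reported here.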

Additional observations from a re-analysis of the deposited data

How the results depend on the processing

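Of 31 alternative values for 7 results, 15 stayed within 1.5 times the count, the 95% interval of the percentage or 1 SD of the gap (0.62). Events called in both directions, up alone and down alone numbered 27, 5 and 13 at p under 0.01, 7, 5 and 5 at p under 0.001, and 12, 19 and 10 among the 41 events with 4 or more junctions. With an absolute log2 fold of at least 1 they numbered 3, 36 and 39, the 36 being within 1.5 times the main count. The percentage of junctions called was 12.7% at p under 0.01, 4.19% at p under 0.001, 32.7% with 4 or more junctions and 14.1% with the fold minimum. Fewer junctions pass a stricter threshold by construction. With positions read as given, 0% of junctions matched an annotated intron. Annotated junctions alone and 1 event per gene left each count within 1.5 times. The median gap ran from 1.18 to 1.48 and the donor-sharing percentage from 38.8% to 40.1%. No paired analysis was possible because the table holds no values per sample, and leaving out a replicate was not run for the same reason. Depth, and with it the smallest change that could be seen, is unknown.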
